A study of Homo sapiens with 6 samples.

Results

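The 10 genes described here sit at the gate from G1 to S phase: MYC, the D cyclins CCND1 and CCND3, the E cyclins CCNE1 and CCNE2, the kinases CDK4 and CDK6, the inhibitor CDKN1B, the pocket protein RB1 and the transcription factor E2F1. They were chosen by symbol from a table of 19201 gene entries, and all 10 were present, with an Ensembl ID that carries the same symbol in GENCODE 44. Gene counts came from bulk RNA-seq of H1299 cells, a line established from a human non-small cell lung carcinoma. In 3 libraries the cells overexpressed the long non-coding RNA lncBCAS1-4_1, and 3 libraries came from wild-type H1299. The labels name no vector for the wild-type cells, no clone and no time point, so an effect of the overexpression procedure and an effect of the RNA cannot be told apart. No label says that the libraries of a group came from separate cultures, and p-values therefore measure only the spread between these libraries, which may be technical.

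D-type cyclins bind CDK4 or CDK6 in G1 and begin the phosphorylation of RB1, which in its unphosphorylated form holds E2F transcription factors inactive. Released E2F1 switches on genes for S phase, the E cyclins among them, and cyclin E with CDK2 then completes the phosphorylation of RB1. CDKN1B (p27) inhibits cyclin E-CDK2, and MYC, which binds DNA with its partner MAX at E-box sequences, drives growth and is known to induce CDK4 and CCND2. In bulk RNA, a shift of cells between cycle phases and a change of RNA per cell cannot be told apart.

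Total counts were 84531039 to 90102655 in the overexpressing libraries and 87393887 to 92780032 in the wild-type libraries. No entry named for lncBCAS1-4_1 was analysed here. CYP24A1, the vitamin D-inactivating hydroxylase named in the series title, had 212102, 299348 and 235864 counts in the overexpressing libraries against 81, 57 and 74 in the wild-type libraries, which separates the labelled groups. Of the 3 epithelial markers KRT8, KRT18 and EPCAM, only the 2 keratins were among the entries tested. KRT18 was at 1231 to 1407 CPM (counts scaled to the library size after TMM normalisation) in overexpressing and 905 to 1037 CPM in wild-type cells. KRT8 was at 418.5 to 478 CPM in overexpressing and 353 to 388 CPM in wild-type cells. Of 18 markers of lung lineage, fibroblasts, immune and endothelial cells 8 were tested, and all but CD68 were at most 2.11 CPM in overexpressing and 1.86 CPM in wild-type libraries. NKX2-1, the only lung lineage marker tested, was at 0.26 to 0.60 CPM in overexpressing and 0.52 to 0.78 CPM in wild-type libraries. CD68, which many cell lines express in lysosomes, was at 79.3 to 87.8 CPM in overexpressing and 69.6 to 73.9 CPM in wild-type libraries.

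Of the 10 genes, 4 were higher in the overexpressing cells (MYC, CCND3, CDK4 and E2F1), 3 were lower (CCND1, CDK6 and RB1) and 3 did not pass (CCNE1, CCNE2 and CDKN1B), by edgeR's quasi-likelihood test at a Benjamini-Hochberg adjusted p under 0.05. Over all 19101 entries tested 38.0% passed, 18.3% as higher and 19.7% as lower. The largest difference was that of CDK6, and the 4 rises were 1.12-fold to 1.20-fold. None of the 10 met the study's own criterion (past 2-fold, unadjusted p under 0.05), which 2.95% of all entries did. By DESeq2 and by limma-voom none of the 10 met this criterion either. CPM values of the groups did not overlap for 7 of the 10, against 50.7% of all entries: 4 of the 10 were higher (24.7% of all entries) and 3 lower (26.0%). After the correction described next, 6 of the 10 did not overlap, against 40.1% of all entries. Of these MYC was higher, and CCND1, CCND3, CDK6, RB1 and E2F1 were lower. CCND3 and E2F1 were thus apart in the opposite order to that before the correction.

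Fold changes in these libraries followed the GC content of the transcripts, which bears on most of the 10. Log2 fold change and GC content had a Spearman correlation of 0.723 over the 10066 genes whose log2 CPM averaged above 3, a description across genes that share the same 6 libraries. For each 10 percentage points of GC content, log2 CPM deviated from the mean of the 6 libraries by 0.16, 0.18 and 0.07 in overexpressing libraries 1 to 3 and by -0.17, -0.17 and -0.07 in wild-type libraries 1 to 3. Within their groups, overexpressing library 3 and wild-type library 3 thus deviated least with GC content from this joint mean. Log2 fold change also fell with transcript length, with a Spearman correlation of -0.485 over the same 10066 genes. For these reasons fold changes are also given after a joint correction of every library for GC content and transcript length. Corrected, 22.6% of all entries passed, 11.5% as higher and 11.1% as lower, and among the 10 only MYC was higher and only CCND1 and CDK6 were lower. Whether the GC and length trends arose in the cells or in the libraries was not tested. The parts of GC content and of length in the correction were not told apart.

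**Figure D1:**
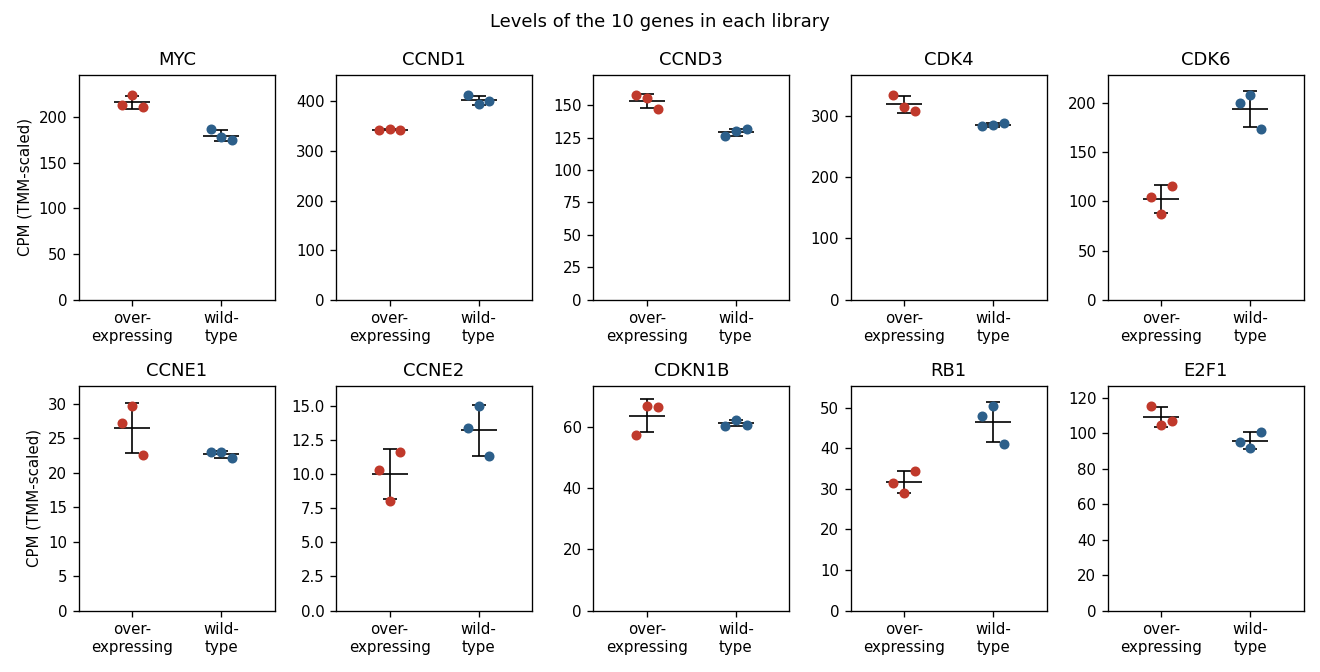
TMM-scaled CPM (vertical axis, from 0, a scale per gene) of the 10 genes in the 3 overexpressing (red) and 3 wild-type (blue) libraries, with the mean and SD as bars. CDK6, RB1 and CCND1 lie lower and MYC, CCND3, CDK4 and E2F1 higher in all overexpressing libraries, while CCNE1, CCNE2 and CDKN1B overlap.

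MYC was higher in the overexpressing cells under both fits. It is the E-box-binding transcription factor of growth and spans bases 127735434 to 127742951 of chromosome 8 (plus strand; GRCh38, GENCODE 44). Its levels were 213, 224 and 211 CPM in the overexpressing libraries and 187, 178 and 174 CPM in the wild-type libraries. Every overexpressing library stood above every wild-type library. The difference was 1.20-fold (log2 fold change 0.27, SE 0.04, adjusted p = 0.0016). After the correction the log2 fold change was 0.27 again (adjusted p = 0.00088). The GC content of the MYC transcript was 48.8%, beside a median of 48.7% over all entries tested.

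The D cyclins moved in opposite directions as fitted. CCND1, the cyclin that growth signals induce in most epithelial cells, spans bases 69641156 to 69654474 of chromosome 11 (plus strand). It stood at 342, 344 and 343 CPM in the overexpressing libraries and at 413, 395 and 400.3 CPM in the wild-type libraries. The overexpressing libraries were almost equal to each other and all below the wild-type range. CCND1 fell by 0.23 on the log2 scale (SE 0.04, adjusted p = 0.0012) and by 0.25 once corrected (adjusted p = 0.00064). CCND3, the D cyclin best known from lymphoid cells, spans bases 41934934 to 42050357 of chromosome 6 (minus strand). Its values were 158, 155.5 and 147 CPM in the overexpressing libraries and 126, 129.8 and 131.5 CPM in the wild-type libraries, without overlap. CCND3 rose 1.19-fold (log2 fold change 0.25, SE 0.04, adjusted p = 0.0019). At a GC content of 60.0%, its corrected log2 fold change was -0.06 (adjusted p = 0.22), with corrected levels of 138, 137 and 138 CPM in overexpressing against 144, 148 and 139 CPM in wild-type libraries, now all lower in the overexpressing libraries. CCND2, the D cyclin not among the 10, was nearly silent in both groups, at 0.241 ± 0.037 CPM in overexpressing and 0.227 ± 0.102 CPM in wild-type cells (SD, n = 3 each).

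CDK6 showed the largest difference of the 10 genes. This kinase partner of the D cyclins spans bases 92604921 to 92836573 of chromosome 7 (minus strand). It had 8830, 7266 and 10421 counts in the overexpressing libraries and 17825, 19673 and 15595 counts in the wild-type libraries, or 102.5 ± 14.5 CPM in overexpressing and 193.8 ± 17.95 CPM in wild-type cells (SD, n = 3 each). No library of one group came near the other, and within each group library 3 lay closest to the other group. CDK6 fell by 0.92 on the log2 scale (SE 0.10, adjusted p = 0.00031), to 0.529 of the wild-type level. The GC content of its transcript is 39.7% and its length of 11663 bases is the greatest of the 10. Corrected levels were 128, 109.5 and 130.0 CPM in overexpressing and 163, 165 and 155 CPM in wild-type libraries, still apart. On the corrected scale CDK6 fell by 0.40 (SE 0.06, adjusted p = 0.0018), less than on the fitted scale.

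CDK4, the other D cyclin kinase, spans bases 57747727 to 57756013 of chromosome 12 (minus strand). It was at 334, 315 and 307.5 CPM in the overexpressing libraries and 283, 285 and 289 CPM in the wild-type libraries. The groups did not overlap, with wild-type library 3 and overexpressing library 3 nearest to each other. CDK4 rose 1.12-fold (log2 fold change 0.16, SE 0.04, adjusted p = 0.015). This call was lost without wild-type library 1 (adjusted p = 0.065) or wild-type library 2 (adjusted p = 0.062). After the correction the log2 fold change was -0.02 (adjusted p = 0.71) and the groups overlapped.

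Promoter windows of RefSeq (GRCh38.p14), 250 bases before and 50 after a transcript start as RefSeq gives it, were found for 7 of the 10 genes, 10 windows in all. Such a start can lie inside the GENCODE span of the gene, as that of CDK4 does. The windows were searched on both strands for the E-box CACGTG and for the E2F words TTTCCCGC, TTTCGCGC, TTTGCCGC and TTTGGCGC. An E-box was present in 7.26% and an E2F word in 3.31% of all 35116 windows. The 3 windows below are those with a match and show where in the promoter the letters lie. Capitals mark the E-boxes in the CDK4 window (chr12:57752261-57752560, minus strand), the E-box in the CDK6 window (chr7:92836524-92836823, minus strand) and the E2F words in the E2F1 window (chr20:33686336-33686635, minus strand).
CDK4: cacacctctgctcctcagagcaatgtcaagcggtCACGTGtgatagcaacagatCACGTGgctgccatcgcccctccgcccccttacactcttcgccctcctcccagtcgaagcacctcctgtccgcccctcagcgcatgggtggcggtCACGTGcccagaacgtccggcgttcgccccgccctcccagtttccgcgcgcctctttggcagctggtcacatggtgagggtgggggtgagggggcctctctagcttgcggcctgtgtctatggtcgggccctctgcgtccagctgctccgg
CDK6: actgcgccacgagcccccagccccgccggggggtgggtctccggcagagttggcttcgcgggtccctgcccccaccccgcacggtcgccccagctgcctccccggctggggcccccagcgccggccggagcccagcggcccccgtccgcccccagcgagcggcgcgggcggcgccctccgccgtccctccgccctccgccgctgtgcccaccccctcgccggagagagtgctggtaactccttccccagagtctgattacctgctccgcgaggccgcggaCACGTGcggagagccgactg
E2F1: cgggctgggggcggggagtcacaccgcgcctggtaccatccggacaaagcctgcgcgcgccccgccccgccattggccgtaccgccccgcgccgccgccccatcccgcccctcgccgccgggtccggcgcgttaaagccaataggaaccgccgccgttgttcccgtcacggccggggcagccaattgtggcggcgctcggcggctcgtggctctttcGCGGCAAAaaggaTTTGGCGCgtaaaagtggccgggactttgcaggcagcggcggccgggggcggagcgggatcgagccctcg
CDK4, which is known as a target of MYC, had 3 E-boxes, which begin at -216, -196 and -101 from its start (base 1 being the first of the transcript). CDK6 had 1 E-box, which begins at base 31 of the transcript. E2F1, which is known to act on its own promoter, had 2 E2F words that do not overlap, TTTGCCGC on the opposite strand at -33 to -26 and TTTGGCGC on the gene's own strand at -20 to -13. Windows of CCND3, CDKN1B and CCNE1 and another window of CDK6 held neither motif. The RB1 window lies far inside the gene, not at the start of its GENCODE span, and nothing is said here of the RB1 promoter. A match is a description of the letters only.

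The cyclins E1 and E2, which activate CDK2 at the entry to S phase, did not pass. CCNE1, at bases 29811991 to 29824312 of chromosome 19 (plus strand), was at 27.2, 29.7 and 22.5 CPM in the overexpressing and 23.0, 22.95 and 22.1 CPM in the wild-type libraries. Overexpressing library 3 lay within the wild-type range and the other two above it. Its log2 fold change was 0.22 with a 95% interval of -0.0023 to 0.45 (adjusted p = 0.11), and 0.05 once corrected (adjusted p = 0.73). The value moved from library to library, at 0.33 (adjusted p = 0.0096) without overexpressing library 3, where CCNE1 passed as higher, and at 0.13 (adjusted p = 0.34) without overexpressing library 2. CCNE2, at bases 94879770 to 94896678 of chromosome 8 (minus strand), was at 10.3, 8.05 and 11.7 CPM in the overexpressing and 13.4, 15.01 and 11.3 CPM in the wild-type libraries. The groups overlapped at library 3 of each. Its log2 fold change was -0.40 with an interval of -0.75 to -0.05 (adjusted p = 0.072), and -0.09 once corrected (adjusted p = 0.63), with a GC content of 34.6%, the lowest of the 10. It passed as lower without overexpressing library 3 (log2 fold change -0.53, adjusted p = 0.034) or wild-type library 3 (-0.50, adjusted p = 0.039), and stood at -0.26 (adjusted p = 0.20) without overexpressing library 2 and -0.30 (adjusted p = 0.23) without wild-type library 2.

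CDKN1B, the p27 inhibitor of cyclin-CDK2, spans bases 12685498 to 12722369 of chromosome 12 (plus strand). Levels were 57.6, 66.9 and 66.8 CPM in the overexpressing and 60.6, 62.5 and 60.9 CPM in the wild-type libraries. Overexpressing library 1 lay below and the other two above the wild-type range. The log2 fold change was 0.06 with a 95% interval of -0.08 to 0.20 (adjusted p = 0.53), and 0.09 with an interval of -0.03 to 0.21 once corrected (adjusted p = 0.25). The interval thus left room for a rise of up to 0.20 on the log2 scale.

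RB1, the pocket protein that restrains E2F, was lower as fitted. It spans bases 48303744 to 48599436 of chromosome 13 (plus strand) and has 27 exons in its canonical transcript. Levels were 31.3, 29.1 and 34.5 CPM in the overexpressing and 48.0, 50.4 and 41.0 CPM in the wild-type libraries. The groups were apart, again with library 3 of each nearest to the other group. RB1 fell by 0.55 on the log2 scale (SE 0.09, adjusted p = 0.0014). With a GC content of 37.1%, its corrected log2 fold change was -0.14 (SE 0.05, adjusted p = 0.059), which did not pass. Corrected levels of 36.2, 35.9 and 37.0 CPM in overexpressing libraries still lay below the 40.5, 41.9 and 38.25 CPM of wild-type libraries.

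E2F1, the activator that RB1 binds, spans bases 33675477 to 33686385 of chromosome 20 (minus strand). It was at 115, 105 and 107 CPM in the overexpressing and 94.9, 91.6 and 101 CPM in the wild-type libraries. The groups did not overlap, and wild-type library 3 came closest to the overexpressing range. E2F1 rose 1.14-fold (log2 fold change 0.18, SE 0.05, adjusted p = 0.024). This call was lost without overexpressing library 1 (adjusted p = 0.088), wild-type library 1 (adjusted p = 0.079) or wild-type library 2 (adjusted p = 0.10), and with library size in place of TMM (log2 fold change 0.13, adjusted p = 0.057). E2F1 has the highest GC content of the 10, 61.6%, and after the correction its log2 fold change was -0.11 with an interval of -0.21 to -0.01 (adjusted p = 0.10). Its corrected levels were 102.5, 92.3 and 100.1 CPM in overexpressing and 108, 104 and 106 CPM in wild-type libraries, so that the groups stayed apart in the opposite order.

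**Figure D2:**
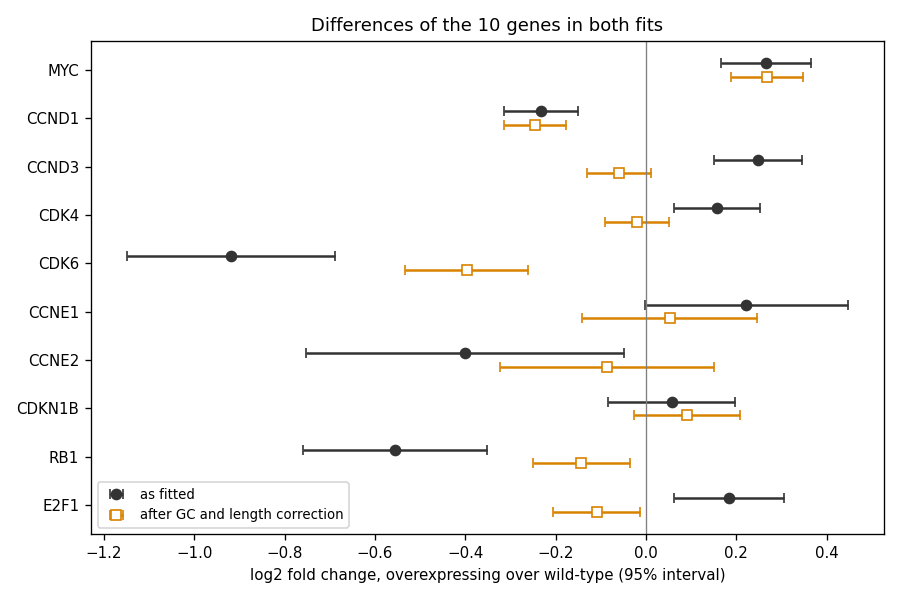
Log2 fold change (horizontal axis, overexpressing over wild-type) of the 10 genes with 95% intervals, as fitted (black circles) and after the GC and length correction (open orange squares). MYC and CCND1 keep their place, CDK6 moves to -0.40 and CCND3, CDK4 and E2F1 cross 0.

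**Figure D3:**
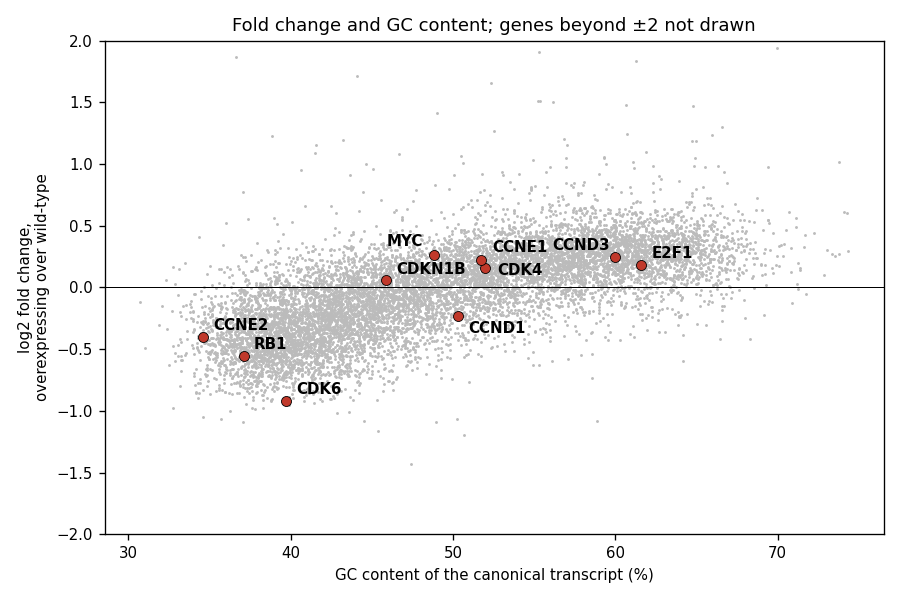
Log2 fold change (vertical axis, overexpressing over wild-type) against the GC content of the canonical transcript in percent (horizontal axis) for the same 10066 genes (grey) and the 10 genes (red); 7 genes beyond ±2 are not drawn. CCNE2, RB1 and CDK6 sit at the low-GC end and CCND3 and E2F1 at the high-GC end of the band, while CCND1 lies below its neighbours.

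Across the 10 genes the Spearman correlation of log2 fold change with GC content was 0.685, and 0.188 after the correction, a description over 10 genes from the same libraries. With the 10066 genes in 4 equal bins of GC content, CCNE2, RB1 and CDK6 fell in the lowest bin, where the median log2 fold change was -0.38 and 70.2% of genes were lower. CDKN1B was in the second bin, with a median of -0.14. MYC, CCND1, CCNE1 and CDK4 were in the third bin, with a median of 0.12, 39.3% higher and 10.8% lower. CCND3 and E2F1 were in the highest bin, with a median of 0.27 and 64.8% higher.

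The ratio of paralogous genes inside a library does not depend on library scaling. CCND1 counts were 2.17, 2.21 and 2.33 times those of CCND3 in the overexpressing libraries and 3.275, 3.04 and 3.045 times in the wild-type libraries. Mean log2 ratios were 1.16 ± 0.05 in overexpressing and 1.64 ± 0.06 in wild-type cells (SD, n = 3 each), a difference of -0.48 with no overlap. For CDK4 over CDK6 the count ratios were 3.19, 3.62 and 2.65 in the overexpressing libraries and 1.415, 1.37 and 1.67 in the wild-type libraries. The mean log2 ratios of this pair were 1.65 ± 0.225 in overexpressing and 0.56 ± 0.15 in wild-type cells, a difference of 1.08. CCNE1 over CCNE2 gave 2.63, 3.685 and 1.93 in the overexpressing libraries and 1.72, 1.53 and 1.955 in the wild-type libraries, a difference of 0.62 with overlap at overexpressing library 3. This difference was 0.385 without overexpressing library 2 and 0.852 without overexpressing library 3. An exact two-sided permutation test gave p = 0.1 for the D cyclins and for the kinases, the smallest that 3 against 3 libraries allow, and p = 0.2 for the E cyclins (0.15, 0.15 and 0.2 adjusted over the 3 ratios). The partners of each pair differ in GC content and in transcript length. After the correction the differences were -0.19, 0.38 and 0.135 for the D cyclins, the kinases and the E cyclins, with exact p of 0.1, 0.1 and 0.7.

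**Figure D4:**
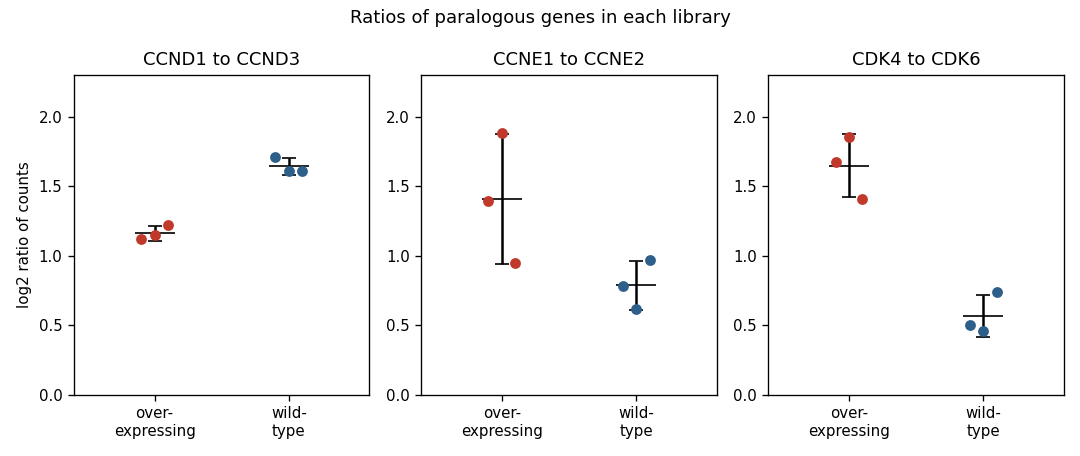
Log2 ratio of counts (vertical axis) of CCND1 to CCND3, CCNE1 to CCNE2 and CDK4 to CDK6 in the 3 overexpressing (red) and 3 wild-type (blue) libraries, with mean and SD. The D cyclin and kinase ratios do not overlap between the groups, and the cyclin E ratio does.

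Levels were compared between genes as CPM per kilobase of the canonical transcript, without the GC and length correction. CDK4 was the most abundant of the 10 at 171 ± 7.25 in overexpressing and 153 ± 1.74 in wild-type cells (SD, n = 3 each), at the 97.4th percentile of all entries tested. CCND1 (80.9 in overexpressing, 95.02 in wild-type cells), CCND3 (75.7 and 63.7 in the same order), MYC (58.0 and 48.3), E2F1 (40.5 and 35.6) and CDKN1B (26.45 and 25.4) came next in both groups. CCNE2 was the least abundant at 3.75 in overexpressing and 4.95 in wild-type cells, near the median of all entries (54.7th percentile). CDK6 and CCNE1 changed places: CDK6 stood at 8.79 ± 1.25 and CCNE1 at 13.5 ± 1.865 CPM per kilobase in overexpressing cells, against 16.6 ± 1.54 for CDK6 and 11.6 ± 0.253 for CCNE1 in wild-type cells. In both groups no neighbours in the order overlapped in their libraries, although CDK6 and RB1 came close in overexpressing cells, with a lowest value of 7.465 for CDK6 and a highest of 7.24 for RB1. Other transcript forms would give other lengths and were not weighed.

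The spans of several of the 10 genes, introns included, overlap that of a counted gene on the opposite strand. Whether exons overlap was not checked, and the strandedness of the libraries is not given in the sources used here. CDK4 overlaps TSPAN31 (19.5 CPM, mean of 6 libraries) and MARCHF9 (20.9 CPM), both far below it. CCNE2 overlaps INTS8 at 61.0 CPM and NDUFAF6 at 13.96 CPM, both above its own level. Where exons overlap, reads of CCNE2 and of these genes may not be told apart. CCND1 overlaps LTO1, CDK6 its antisense RNA CDK6-AS1, CDKN1B GPR19 and RB1 RCBTB2, each at 17.4 CPM or less. MYC, CCND3, CCNE1 and E2F1 overlap no other entry of the table.

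Among the direct partners of the 10 genes more were lower than higher. Of 26 partner genes of G1 control (other cyclins, kinases, inhibitors, pocket proteins, E2F and DP factors and the ubiquitin ligase subunits that act on them) 2 were higher and 12 lower (median log2 fold change -0.17, against -0.0041 over all entries), beside the 18.3% higher and 19.7% lower of all entries. CDKN1A (p21), an inhibitor of cyclin-CDK complexes, rose 1.77-fold to 70.3 ± 3.085 CPM in overexpressing cells, against 39.6 ± 3.02 CPM in wild-type cells (SD, n = 3 each; adjusted p = 7.2e-05), and its corrected log2 fold change was 0.55 (adjusted p = 6.6e-05). CDKN2A, which encodes the CDK4 and CDK6 inhibitor p16 and the p14 protein, rose 1.30-fold (adjusted p = 0.0013), but its corrected value was 0.06 (adjusted p = 0.33). SKP2, which marks p27 for destruction, fell by 0.52 on the log2 scale to 42.7 ± 2.04 CPM in overexpressing cells, against 61.2 ± 2.68 CPM in wild-type cells, and by 0.24 once corrected (adjusted p = 0.0014). TFDP1, the DNA-binding partner of E2F1, fell by 0.36 and by 0.33 once corrected (adjusted p = 0.0012). FBXW7, which marks cyclin E and MYC for destruction, fell by 0.39 (adjusted p = 0.036), a call lost without overexpressing library 1 (adjusted p = 0.10) or any 1 of the wild-type libraries (adjusted p = 0.072 to 0.085) and after the correction (-0.18, adjusted p = 0.31). The pocket proteins RBL1 and RBL2, relatives of RB1, fell by 0.65 and 0.35 on the log2 scale (adjusted p = 0.0021 and 0.013), and like RB1 they did not pass after the correction, at -0.26 (adjusted p = 0.053) and -0.08 (adjusted p = 0.54). CDK2, the kinase of cyclin E, was at -0.11 (adjusted p = 0.10) as fitted and -0.14 (adjusted p = 0.044) after the correction. The CDK4 and CDK6 inhibitors CDKN2C and CDKN2D had log2 fold changes of -0.10 and 0.07 (adjusted p = 0.17 and 0.54). After the correction CDKN2C was at -0.08 (adjusted p = 0.22) and CDKN2D passed as lower (-0.27, adjusted p = 0.018). The correction left 2 partner genes higher and 9 lower, where 11.5% and 11.1% of all entries were. Of these genes CDKN1A was higher and 5 were lower in both fits. The corrected median was -0.15, against -0.0131 over all entries. The other gene higher after the correction was the CDK-activating kinase CDK7 (0.31, adjusted p = 0.0086), named after its value was seen. As fitted CDK7 was at 0.10 (adjusted p = 0.15). Its partners CCNH and MNAT1, on the same list, were lower as fitted (-0.30 and -0.23, adjusted p = 0.048 and 0.03). Neither passed after the correction (-0.17 and 0.07, adjusted p = 0.23 and 0.43).

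The E2F family was looked at as a whole after the values were seen. Of E2F1 to E2F8, E2F1 alone was higher and 4 were lower as fitted: E2F7, an inhibitory member, by 0.52 on the log2 scale (adjusted p = 0.00053), E2F8, its close relative, by 0.40 (adjusted p = 0.0032), E2F3, an activator, by 0.39 (adjusted p = 0.0040) and E2F6 by 0.31 (adjusted p = 0.019). The E2F6 call was lost without wild-type library 1 or 2 and after the correction (-0.17, adjusted p = 0.14). After the correction all 8 had a log2 fold change below 0, none was higher and 5 were lower: E2F8 at -0.25, E2F2 at -0.25, E2F3 at -0.23, E2F7 at -0.21 and E2F4 at -0.16. E2F4 had been at 0.12 (adjusted p = 0.13) as fitted. E2F5 was at -0.13 as fitted and -0.15 after the correction and passed in neither fit. Beside these counts, 18.3% of all entries passed as higher and 19.7% as lower in the fit without correction. With it the shares were 11.5% and 11.1%, and half-way in the order of all entries stood a value of -0.0131. Whether the family differed from all entries was not tested.

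Of 15 tested genes of the MYC network, in which MAX pairs with MYC or with antagonists of MYC, 7 were higher and 2 lower, where 18.3% and 19.7% of all entries were. The median log2 fold change was 0.08, against -0.0041 over all entries. MAX rose with MYC, 1.19-fold to 65.9 ± 2.13 CPM in overexpressing cells, against 55.2 ± 1.04 CPM in wild-type cells (SD, n = 3 each; adjusted p = 0.0021), and by a corrected log2 fold change of 0.16 (adjusted p = 0.013). MXD4, a MAX partner that antagonises MYC, rose 1.49-fold to 92.1 ± 2.77 CPM in overexpressing cells, against 61.9 ± 6.81 CPM in wild-type cells (adjusted p = 0.00049), and by 0.34 once corrected (adjusted p = 0.0010). MNT, another such antagonist, rose 1.25-fold (adjusted p = 0.0086), but its corrected value of 0.155 did not pass (adjusted p = 0.21). RUVBL2, an ATPase bound by MYC, rose 1.19-fold (adjusted p = 0.0094) and was at -0.08 after the correction. MGA, a large MAX partner, was lower at -0.60 on the log2 scale (adjusted p = 0.00020) and, corrected, at -0.18 (adjusted p = 0.019). TRRAP, the scaffold through which MYC recruits histone acetyltransferases, fell by 0.26 and, corrected, by 0.14 (adjusted p = 0.020). Corrected counts were 3 higher and 2 lower, all of them among the calls as fitted, where 11.5% and 11.1% of all entries were. Beside MAX and MXD4, the other gene higher after the correction was MXD1 (0.58, adjusted p = 0.0017), named after its value was seen. As fitted MXD1 was at 0.26 (adjusted p = 0.044). The corrected median was -0.0199, against -0.0131 over all entries. The median GC content of this list was 56.4%, against 48.7% over all entries.

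Of 22 genes known as MYC targets 4 were higher and 6 lower, and the share of the list that was higher was near the 18.3% of all entries (19.7% of which were lower). The median log2 fold change was 0.04, against -0.0041 over all entries. AIMP2, a scaffold of tRNA synthetases, rose 1.29-fold (adjusted p = 0.0027), with a corrected log2 fold change of 0.185 (adjusted p = 0.028) beside 0.37 as fitted. MRTO4, a ribosome assembly factor, rose 1.15-fold (adjusted p = 0.014) but did not pass after the correction (0.05, adjusted p = 0.54). The rRNA methyltransferase FBL and the spermidine synthase SRM rose 1.14-fold each (adjusted p = 0.014 and 0.038). PPAT, an enzyme of purine synthesis, fell by 0.64 and WDR43, a ribosome assembly factor, by 0.53 on the log2 scale (adjusted p = 0.00034 and 0.00083), and their corrected values were -0.31 and -0.25 (adjusted p = 0.0021 and 0.0095). The nucleolar proteins NPM1 and NCL fell by 0.26 and 0.25 (adjusted p = 0.0018 and 0.0037), and their corrected values were -0.10 and -0.17 (adjusted p = 0.027 and 0.036). NPM1 has processed pseudogenes with which its reads may be shared. The 4 rises became 2 without wild-type library 1 and 1 without wild-type library 2, where FBL (adjusted p = 0.058 and 0.064) and SRM (adjusted p = 0.083 and 0.14) no longer passed. SRM also did not pass without overexpressing library 1 (adjusted p = 0.089) or wild-type library 3 (adjusted p = 0.054), nor MRTO4 without wild-type library 2 (adjusted p = 0.066). With the correction the counts were 3 higher and 11 lower, at a median of -0.12, beside 11.5% and 11.1% of all entries. Directions changed with a call in both fits for 3 genes: FBL (-0.12, adjusted p = 0.027) and SRM (-0.17, adjusted p = 0.030) became lower, and the RNA polymerase I subunit POLR1B, at -0.21 as fitted, became higher (0.15, adjusted p = 0.036), POLR1B being named after its values were seen.

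Of 21 genes that E2F factors are known to induce for S phase, 5 were higher and 11 lower, where 18.3% and 19.7% of all entries were. The median log2 fold change was -0.13, against -0.0041 over all entries. The licensing factor CDT1 rose 1.275-fold (adjusted p = 0.0012), and the helicase subunits MCM7, MCM2 and MCM5 rose 1.21-fold, 1.18-fold and 1.16-fold (adjusted p = 0.0014, 0.0035 and 0.011). MCM5 did not pass without wild-type library 1 (adjusted p = 0.052) or wild-type library 2 (adjusted p = 0.050). CCNA2, the cyclin of S phase, fell by 0.55 on the log2 scale to 128 ± 9.63 CPM in overexpressing cells, against 186.5 ± 14.95 CPM in wild-type cells (SD, n = 3 each; adjusted p = 0.00055). The DNA polymerase subunit POLA1 fell by 0.60 and UHRF1, which guides maintenance DNA methylation, by 0.29 (adjusted p = 0.00025 and 0.00060). After the correction edgeR called none higher, also at an unadjusted p under 0.05, and 9 lower, with a median of -0.07, where 11.5% and 11.1% of all entries passed. CCNA2 (-0.35), POLA1 (-0.30) and UHRF1 (-0.45) were among the 5 lower in both fits, and CDT1 (0.05), MCM7 (0.04), MCM2 (0.03) and MCM5 (0.02) did not pass.

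**Figure D5:**
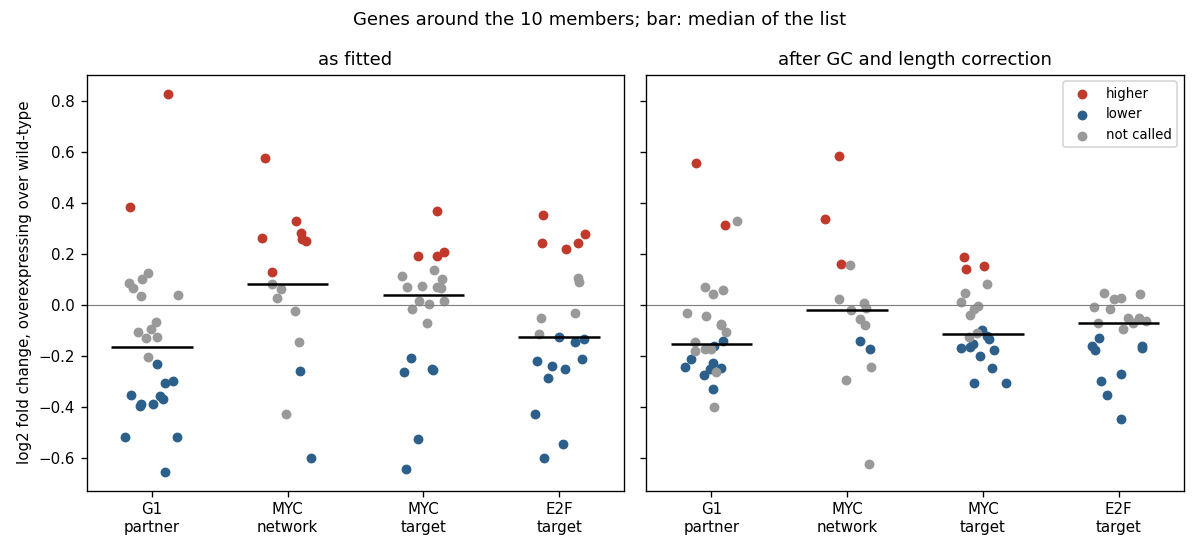
Log2 fold change (vertical axis, overexpressing over wild-type) of 26 G1 partner, 15 MYC network, 22 MYC target and 21 E2F target genes as fitted (left) and after the GC and length correction (right), with genes called higher in red, called lower in blue and the others in grey, and the median of each list as a bar. The rises among E2F target genes are absent on the right, and CDKN1A stays the highest G1 partner gene.

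The share of counts from the mitochondrial genome, which can move with RNA quality, was 0.906% to 1.02% in the overexpressing libraries and 1.44% to 1.67% in the wild-type libraries. Its part in the differences above was not tested.

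By root mean square difference of mean-centred log2 CPM over the 6 libraries, among 5923 genes with a mean log2 CPM of at least 5, the genes closest to MYC were JOSD1 (0.0236), MAX (0.0242) and GBA2 (0.0298). Those closest to CCND1 were TRAPPC10 (0.0151), CORO1C (0.0154) and GEMIN5 (0.0159). Among those closest to E2F1 were TIMM10 (0.0126) and TXN2 (0.0176). This measure includes the difference between the 2 groups.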

How the data were processed

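RNA-seq gene counts of 3 lncBCAS1-4_1-overexpressing and 3 wild-type H1299 libraries were taken as deposited. Per the labels' protocols and the submitters' processing notes, the authors trimmed reads with fastp, mapped them to GRCh38 with HISAT2 and estimated expression with StringTie, and edgeR is also named. How the deposited whole-number counts per gene were taken, the versions of these tools and the strandedness are not stated in the labels or notes used. Replicates of a group differed by more than sampling noise (chi-square per degree of freedom 11.4 to 22.2), so none was merged.

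Here, entries were filtered with filterByExpr (minimum count 10, minimum total 15), scaled by TMM and tested with edgeR 4.0.16 in R 4.3.3 (quasi-likelihood F-test, Benjamini-Hochberg adjustment over all 19101 entries, threshold 0.05). CPM values use these scaled library sizes. The GC and length correction gave edgeR offsets from natural splines with 5 degrees of freedom per library on transcript GC content and log2 length (GENCODE 44, canonical transcripts; 19067 of 19201 IDs matched), fitted on genes with a mean log2 CPM of at least 1. Such a correction also removes any biological difference that follows GC content or transcript length. Ratios were tested by exact permutation. The scripts were tested on simulated data. Alternatives were DESeq2 1.42.0, limma-voom (limma 3.58.1), other scalings and filters, a replicate block and leaving out each library.

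The members and gene lists were chosen with earlier results of these data known. From each list up to 4 higher and 4 lower genes with the smallest p among those called were named, with those whose product acts directly on a member. Some genes that these rules name are not reported here. Total counts were 84531039 to 92780032 per library. Counting error is a larger part of the spread for genes with few counts, such as CCND2.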

Additional observations from a re-analysis of the deposited data

How the results depend on the processing

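MYC, CCND1 and CDK6 kept their direction and their call under every alternative run. With the correction for GC content and length 4316 entries were called in place of 7250, with 1 of the 10 genes higher in place of 4, 3 MYC network genes higher in place of 7, 11 MYC target genes lower in place of 6 and 0 E2F target genes higher in place of 5. The differences of the log2 ratios became -0.19 for CCND1 to CCND3, 0.135 for CCNE1 to CCNE2 and 0.38 for CDK4 to CDK6. Under the correction 25 of the 84 listed genes and 3 of the 10 genes changed sign. How many of all entries did so was not counted. Among the genes followed under all alternatives those that changed sign were CCND3 (-0.0598), CDK4 (-0.0199), E2F1 (-0.11), CDKN2D (-0.27), RUVBL2 (-0.0798), FBL (-0.12), SRM (-0.17), E2F4 (-0.16), TK1 (-0.10) and POLR1B (0.15). The cause was not tested.

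Same-numbered libraries did not deviate together (r = -0.0732, -0.263 and -0.437 over 10088 genes), so the numbers were not read as pairs. With the replicate block the number of all entries called was 5695, and of the 10 genes 2 were higher, as CDK4 (adjusted p = 0.068) and E2F1 (adjusted p = 0.059) did not pass by edgeR. The block with the correction gave 3350 entries, 1 of the 10 genes higher, 7 G1 partner genes lower, 3 MYC network genes higher and 1 lower, 2 MYC target genes higher and 0 E2F target genes higher. Among the same genes the values that turned were then CCND3 -0.0594, CDK4 -0.0203, E2F1 -0.11, CDKN2D -0.28, RUVBL2 -0.0810, FBL -0.12, SRM -0.17, E2F4 -0.16, TK1 -0.10 and POLR1B 0.15.

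Leaving out a library gave 5453 to 7114 calls, 2 to 5 of the 10 genes higher and 1 to 4 MYC target genes higher. CCND2, near 0 CPM, ranged from -0.19 to 0.47 and turned without overexpressing library 2 or wild-type library 3. DESeq2 called CCNE1 (adjusted p = 0.048) and CCNE2 (adjusted p = 0.021), which edgeR did not. The other scalings and filters and limma-voom gave 7182 to 7369 for all entries called, and 3 or 4 of the 10 genes higher and 3 lower. The low counts of CCND2, 12 to 30 per library, limit what can be said of it.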
